A study of Mus musculus with 6 samples.

Results

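The terminal complement components and their regulators were examined in mouse liver as a set of 10 listed genes. These are Hc, C6, C7, C8a, C8b, C8g and C9, whose proteins build the membrane attack complex, and Cd59a, Vtn and Clu, whose products restrain it. Members were every probe set, the group of oligonucleotides that reports one transcript, whose platform gene symbol is on the list. This gave 14 probe sets for 9 genes, out of 18029 genes represented on the arrays. C7 is not analysed here. The livers came from C57BL/6 mice aged 16 weeks that had eaten a high-fat diet for 8 weeks, 3 carrying floxed RECS1 alleles (RECS1-flox, control) and 3 with RECS1 lacking in hepatocytes (RECS1-HKO, HKO). Tmbim1 is the current symbol of RECS1, which encodes a membrane protein. There was 1 array for each liver, and the values are log2 intensities. The labels name no Cre driver, no sex and no litters.

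The terminal pathway is the last step of complement. A convertase cleaves C5, the product of Hc in the mouse, into the inflammatory peptide C5a and the fragment C5b, which binds C6 and C7 and then C8, a protein of alpha, beta and gamma chains from separate genes. This complex inserts into a membrane and makes C9 polymerise into a pore. Hepatocytes are the main source of most of these plasma proteins, and male mice are known to have higher terminal pathway activity than females.

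In HKO liver 4 of the 9 measured members fell and none rose (limma, Benjamini-Hochberg adjusted p under 0.05 over all genes). The 4 were C6, C8b, C8a and Hc. Over all 18029 genes, 0.449% were called lower and 0.56% higher. Among the 1779 genes at least as bright as the dimmest member, 1.18% were called lower. The pore-forming side of the set divided into C6 and C8b, at about 0.3 of the control level, C8a and C9, at 0.534 and 0.555 times control, Hc at 0.704 times, and C8g at 0.972 times. The median log2 difference over the 9 members was -0.51, against -0.0041 over all genes.

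The start-site regions of the 4 members that fell are shown because these transcripts fell in the same livers, so that their sequences can be read side by side. Each line gives 250 bases before and 50 bases after the annotated start, read 5′ to 3′ on the strand of the gene (RefSeq, GRCm38.p6). Capitals mark matches to any of 5 motifs searched on both strands.
C6, chr15:4726960-4727259, plus strand: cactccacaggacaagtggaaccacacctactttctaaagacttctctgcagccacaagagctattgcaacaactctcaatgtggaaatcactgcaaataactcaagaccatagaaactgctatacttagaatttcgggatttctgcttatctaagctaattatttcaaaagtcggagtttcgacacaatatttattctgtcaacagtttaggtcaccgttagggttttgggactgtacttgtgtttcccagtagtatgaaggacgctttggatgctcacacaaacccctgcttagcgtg
C8b, chr4:104766067-104766366, plus strand: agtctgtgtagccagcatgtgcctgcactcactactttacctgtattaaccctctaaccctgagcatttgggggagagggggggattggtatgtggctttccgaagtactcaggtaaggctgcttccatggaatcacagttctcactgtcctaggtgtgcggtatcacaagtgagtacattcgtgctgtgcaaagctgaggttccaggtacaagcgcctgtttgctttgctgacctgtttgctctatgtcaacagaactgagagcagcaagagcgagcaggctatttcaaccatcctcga
C8a, chr4:104876349-104876648, minus strand: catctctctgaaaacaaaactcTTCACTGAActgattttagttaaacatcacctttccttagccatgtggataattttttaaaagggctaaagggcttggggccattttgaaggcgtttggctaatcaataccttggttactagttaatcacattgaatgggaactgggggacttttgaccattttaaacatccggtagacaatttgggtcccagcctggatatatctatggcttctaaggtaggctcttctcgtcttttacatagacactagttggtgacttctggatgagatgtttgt
Hc, chr2:35061363-35061662, minus strand: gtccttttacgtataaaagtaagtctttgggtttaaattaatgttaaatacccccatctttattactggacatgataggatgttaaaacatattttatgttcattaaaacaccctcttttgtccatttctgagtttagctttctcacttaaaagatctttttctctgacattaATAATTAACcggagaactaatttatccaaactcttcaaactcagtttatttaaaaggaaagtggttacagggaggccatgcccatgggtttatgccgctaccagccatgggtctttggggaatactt

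The 5 motifs were TTCNNNGAA (STAT5 type), GTTAATNAT (HNF1 type), CAAAGTCCA (HNF4 type), TTGCNNAA (C/EBP type) and GGGNNTTCC (NF-kB type), which overlapped in no member window. C8a held TTCACTGAA, beginning 228 bases before the start, and Hc held the HNF1-type letters on the opposite strand, printed as ATAATTAAC and beginning 77 bases before the start. The windows of C6 and C8b held none of the 5. Of 32851 RefSeq windows of the same length, 8.3% held the STAT5-type letters, 0.801% the HNF1-type, 0.475% the HNF4-type, 10.8% the C/EBP-type and 5.82% the NF-kB-type. Among the members that did not pass, Vtn held TTCTGGGAA beginning 35 bases after its start, C9 held TTGCATAA beginning 132 bases before it, and the windows of C8g and Cd59a held none. The window of C7, whose transcript is not analysed here, held TTCCCAGAA beginning 164 bases before its start. Windows were at hand for 9 of the 10 listed genes, and Clu was not among them. A match is only a run of letters.

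The targeted gene stood at 7.62, 7.58 and 7.74 in control 1 to 3 and at 7.19, 7.14 and 7.06 in HKO 1 to 3 (Tmbim1, log2), with no overlap. Its log2 difference was -0.52 ± 0.08 (SE, limma adjusted p = 0.026), so its signal in whole liver was still 0.697 times control. The source of the remaining signal was not tested. Arrays of one genotype correlated at 0.9948 to 0.9964 and arrays of different genotypes at 0.991 to 0.994, over 18029 genes that are not independent replicates. All 12 measured hepatocyte markers were above the median gene (4.69), none passed the test, and their mean level was 12.45 to 12.51 in controls and 12.33 to 12.53 in HKO. Xist, the X-inactivation RNA, lay between 1.20 and 1.57 on the 6 arrays, below the median gene. The Y-linked Eif2s3y lay between 6.74 and 7.14 and the Y-linked Kdm5d between 5.48 and 5.83, both above the median gene. Uty, also Y-linked, was below the median gene on every array. No array stood apart in Xist or Eif2s3y, and by Xist, Eif2s3y and Kdm5d all 6 read as male. In bulk tissue, fewer cells of a type and less RNA per cell cannot be told apart.

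Hc, the C5 gene, was the first member of the pathway and the least changed of those that fell. Its values were 11.49, 11.55 and 11.46 in controls and 10.95, 11.15 and 10.89 in HKO (log2). The highest HKO liver lay below the lowest control. The log2 difference was -0.51 ± 0.09 (SE, n = 3 each, limma adjusted p = 0.0441). With every one of the 38195 probe sets tested as its own row it was just outside the threshold (adjusted p = 0.0514). In that fit 3 of the 14 member probe sets were called lower, those of C6, C8b and C8a, against 0.335% of all probe sets.

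C6, the first protein to join C5b, fell to 0.299 times the control level. The controls read 9.66, 9.54 and 9.72 and the HKO livers 7.58, 8.39 and 7.72. The groups were separated by more than 1 log2 unit, with HKO 2 the nearest to the controls. The log2 difference was -1.74 ± 0.19 (SE, limma adjusted p = 0.00544, 95% interval -2.18 to -1.30).

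The 3 chains of C8 did not move alike. C8b, the beta chain that binds the C5b-C7 complex, read 9.10, 9.11 and 9.11 in controls, a spread of 0.0091 (SD), and 7.32, 7.73 and 6.97 in HKO. Its log2 difference was -1.77 ± 0.17 (SE, limma adjusted p = 0.00272), or 0.294 times control. C8a, the membrane-inserting alpha chain, read 11.47, 11.54 and 11.39 in controls and 10.28, 10.90 and 10.49 in HKO. Every HKO liver was below every control, and the log2 difference was -0.91 ± 0.15 (adjusted p = 0.0357). C8g, the lipocalin-like gamma chain that is linked to the alpha chain, read 11.55, 11.57 and 11.51 in controls and 11.59, 11.50 and 11.41 in HKO, with overlapping groups. Its log2 difference was -0.04 ± 0.08 (adjusted p = 0.862), and the 95% interval of -0.22 to 0.13 leaves out changes of the size seen in the other chains.

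C9, the subunit that polymerises into the pore, did not pass the test although its groups did not overlap. The values were 12.02, 12.06 and 11.79 in controls and 11.09, 11.48 and 10.74 in HKO. The log2 difference was -0.85 ± 0.17 (SE, limma adjusted p = 0.0752), close in size to that of C8a. The spread was wider than that of C8a among the HKO livers (SD 0.370 against 0.316) and among the controls (SD 0.141 against 0.0759). It passed without HKO 2 (-1.04, adjusted p = 0.0195).

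**Figure D1:**
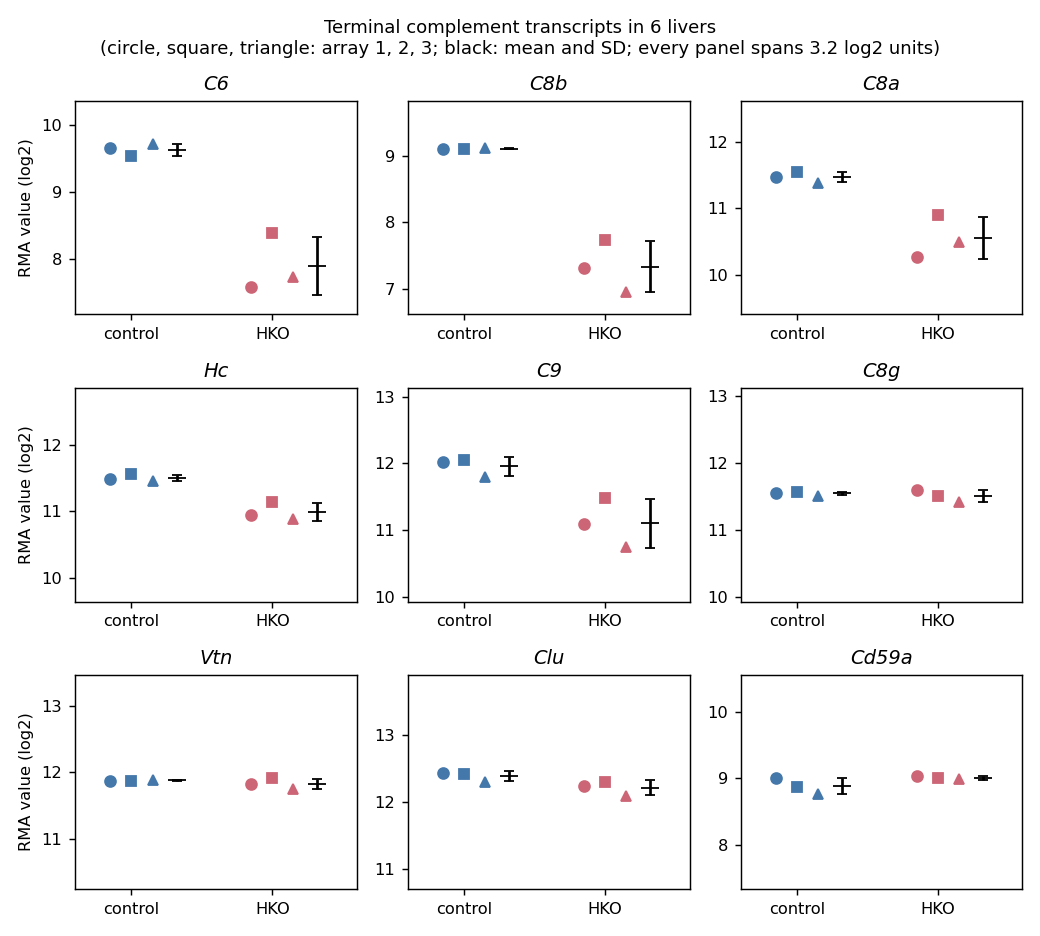
RMA values (log2, y axis) of the 9 measured members on each array, each by its brightest probe set, with control arrays in blue and HKO arrays in red, marker shape giving the array number, and the black mark the mean and SD of 3 arrays. The HKO livers lie below all controls for C6, C8b, C8a, Hc and C9, while the groups overlap for C8g, Vtn, Clu and Cd59a.

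All 3 HKO arrays lay below all 3 control arrays in 5 of the 9 members, namely C6, C8b, C8a, Hc and C9. The same held for 10.1% of all genes and for 17.7% of the genes at least as bright as the dimmest member. In each of these 5 members HKO 2 was the liver nearest to the controls. It was also the HKO liver nearest to the control mean in C8g, Vtn and Clu, whose groups overlapped, while in Cd59a this was HKO 3. The share of all genes with HKO 2 nearest was not counted.

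Differences between members were taken within each array, so that they are changes of a ratio of signals and not of a level. Control means were 9.11 for C8b and 11.46 for C8a, and 9.64 for C6 and 11.95 for C9. Whether probe sets of such unlike brightness follow transcript amounts alike was not tested. C8b fell below C8a by a further -0.86 log2 units, with HKO values of -0.60, -0.81 and -1.17 around a control mean of 0. C6 fell below C9 by a further -0.89, with HKO values of -1.19, -0.78 and -0.70. Relative to C8g, C8a stood at -0.86 and C8b at -1.72, a pair of comparisons chosen after the values were seen. In all 4 comparisons the groups did not overlap, and the exact two-sided permutation p was 0.1, also after Benjamini-Hochberg adjustment over the 4, which is the smallest p that 3 arrays against 3 can give. None of the 4 therefore reached 0.05.

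None of the 3 regulators passed the test. Vtn, vitronectin, which binds assembling complexes in plasma and keeps them off membranes, read 11.87, 11.88 and 11.89 in controls and 11.82, 11.91 and 11.75 in HKO. The groups overlapped, HKO 2 being the highest of the 6. Its log2 difference was -0.05 ± 0.07 (SE, limma adjusted p = 0.818, 95% interval -0.22 to 0.12), and its other probe set stood at -0.14. Clu, clusterin, a chaperone with a like role in plasma, differed by -0.17 ± 0.08 (adjusted p = 0.45), with 4 probe sets between -0.18 and -0.11 and none past the threshold. The groups overlapped in its brightest probe set and in 1 other, and did not in the remaining 2. In one of those, controls read 11.20, 11.05 and 10.97 and HKO livers 10.89, 10.93 and 10.87. Of the 4 probe sets, 3 are of the type that Affymetrix marks as open to cross-hybridisation. Cd59a, the membrane-anchored inhibitor of C9 polymerisation, read 9.01, 8.87 and 8.77 in controls and between 8.98 and 9.03 in the 3 HKO livers, a log2 difference of 0.12 ± 0.08 (adjusted p = 0.583), and its second probe set was at 0.21. The groups overlapped through control 1, and it was the only measured member with a positive value. Its close paralog Cd59b is not analysed here, and whether the Cd59a probes also take up its transcript was not tested.

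**Figure D2:**
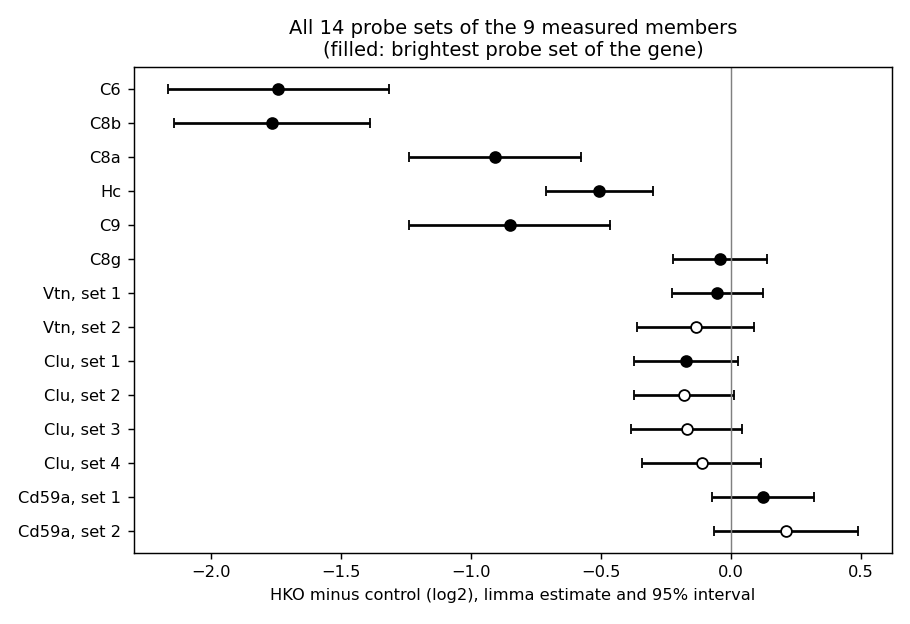
Difference between HKO and control (log2, x axis) for each of the 14 probe sets, with limma's 95% interval, filled where the probe set is the brightest of its gene. The intervals of C6 and C8b end below -1.3, those of C8a, Hc and C9 lie below 0, and all 9 probe sets of C8g, Vtn, Clu and Cd59a have intervals that take in 0.

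The calls rested unequally on single livers. C6 and C8b passed in all 6 fits that left out 1 array, with log2 differences of -1.99 to -1.58 for C6 (adjusted p 0.000159 to 0.0368) and of -1.96 to -1.58 for C8b (0.000457 to 0.0266). C8a and Hc passed only without HKO 2. Without control 1, 2 or 3, HKO 1 or HKO 3, C8a had adjusted p-values of 0.102 to 0.139 and Hc of 0.114 to 0.168, and the count of fallen members was then 2. Their differences kept their sign and lay between -1.08 and -0.77 for C8a and between -0.58 and -0.45 for Hc.

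Other genes of the cascade were taken from lists of recognition proteins and proteases, regulators and receptors. Of 16 measured upstream genes 1 fell, none rose and 15 did not pass, with a median of -0.12. The one that fell was C1ra, the protease that activates C1s in the classical pathway, from 9.37 to 8.83 (log2 difference -0.53 ± 0.07, SE, limma adjusted p = 0.0179). It no longer passed without control 1, 2 or 3, HKO 1 or HKO 3. C2, the protease of the classical convertase, stood at -0.44 (0.155), and the lectins Mbl1 and Mbl2, which start the lectin pathway, at -0.37 (0.187) and 0.28 (0.242).

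Of 10 other measured regulators none passed. The membrane regulator Cd55 stood at 0.34 (limma adjusted p = 0.0967), the carboxypeptidase N subunit Cpn2 at -0.46 (0.158), the C1 inhibitor gene Serping1 at -0.23 (0.329) and C4bp, which binds C4b, at -0.17 (0.526). Of 6 measured receptors none passed, with C5ar1, a receptor of C5a, at 0.24 (0.233), Itgam at -0.36 (0.513), Itgb2 at 0.20 (0.766) and C3ar1 at -0.10 (0.845). The integrins Itgam and Itgb2 form complement receptor 3. The control levels of C5ar1, Itgam and C3ar1 lie below the median gene.

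Several of these plasma proteins take part in the acute phase response. Of 12 measured acute phase genes none passed, and all 12 were below 0, with a median of -0.43. Control 1 stood above the other controls in several of them, for example with Orm2 at 8.48 against 5.73 and 5.18 and Lcn2 at 8.03 against 5.21 and 4.81. Without control 1 the median was -0.14 and 3 of the 12, Orm2, Lcn2 and Apcs, were above 0. Orm1, an orosomucoid, stood at -0.51 (limma adjusted p = 0.0984), Itih3 at -0.43 (0.163), Saa1 at -1.45 (0.222) and Saa3 at -0.94 (0.339). Saa1 read 10.92, 9.84 and 8.97 in controls and 8.05, 8.37 and 8.97 in HKO, so the controls themselves spread over almost 2 log2 units. The part of this list in the complement values was not tested.

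**Figure D3:**
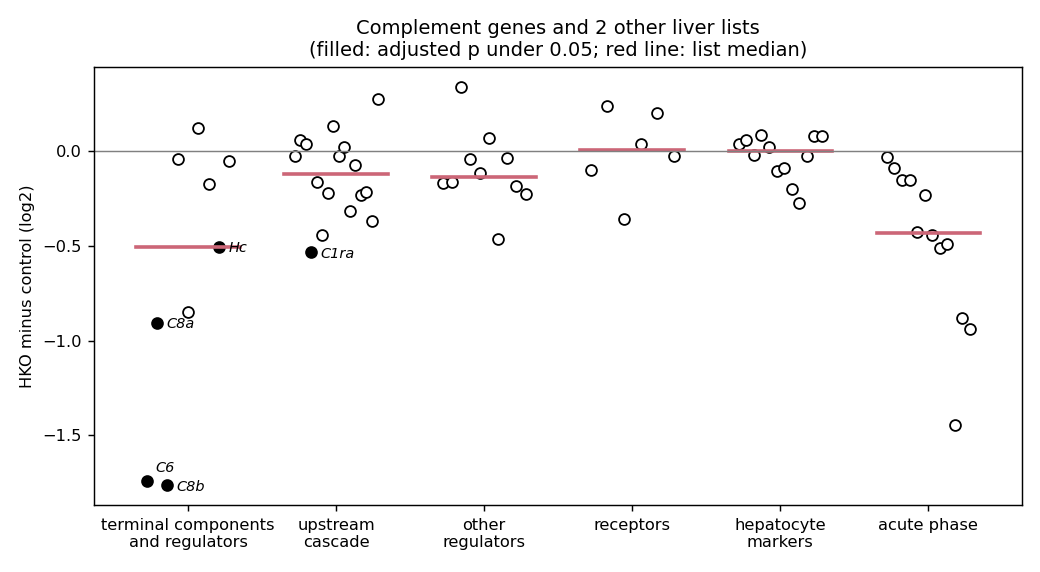
Difference between HKO and control (log2, y axis) of each measured gene in 6 lists, 1 circle a gene, filled where the limma adjusted p is under 0.05, with the list median in red. C6 and C8b lie lowest among the complement genes at -1.74 and -1.77, and C1ra is the only filled gene outside the terminal set.

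Genes with a sex-dependent level in mouse liver were read beside the terminal genes. Of 9 measured genes that male liver expresses more (C6 itself left out) 2 fell and 7 did not pass, all 9 being below 0 with a median of -1.43 (-0.90 without HKO 1). Of 9 that female liver expresses more, 5 rose and 4 did not pass, all above 0. The 2 that fell were Cyp7b1 (-1.76, limma adjusted p = 0.022) and Moxd1 (-5.11, 0.00171), and the 5 that rose, Cyp2b9, Hao2, Slc22a27, Acot3 and Cyp2b13, did so by 1.38 to 6.28. The control means of these 5 and the HKO mean of Moxd1 (2.83) lie below the median gene, so these differences set a measured level against a dim one. The count of 2 became 1 without control 1, 2 or 3 or without HKO 3, and 5 without HKO 2. Cyp7b1, an oxysterol hydroxylase of the first list, read 11.34, 11.45 and 11.31 in controls and 9.36, 10.29 and 9.17 in HKO. Slco1a1, a hepatocyte uptake transporter of the same list, read 10.46, 10.43 and 10.43 in controls and 7.83, 9.68 and 8.06 in HKO (-1.91 ± 0.41, SE, limma adjusted p = 0.0908). In both genes HKO 2 was again the HKO liver nearest to the controls. The rest of this list was alike except for Moxd1 and Cyp2u1. In Moxd1 the nearest was HKO 3 (2.83, 2.74 and 2.93 in HKO 1 to 3), and in Cyp2u1 it was HKO 1 (6.22, 6.20 and 5.81). The part of these genes in the complement values was not tested, and the lists were drawn up with earlier results of these data known.

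Profiles like those of C6 and C8b were sought among 9013 genes brighter than the median gene, by the root mean square difference of gene-centred log2 values over the 6 arrays. This measure takes in the step between genotypes as well as the spread within them. C8b was the second nearest gene to C6 (0.16), and C6 the second nearest to C8b. These are the members with the largest falls, of nearly equal size (-1.74 and -1.77). A high rank of each for the other was therefore largely given by the choice of this pair. Nearest to C6 was Enho, which encodes the peptide adropin (0.11), and nearest to C8b was Cyp7b1 (0.16). Enho read 7.24, 7.29 and 7.37 in controls and 5.001, 5.88 and 5.20 in HKO. The remaining nearest genes were Cyp7b1, Adh6-ps1 and the vasopressin receptor gene Avpr1a for C6, and Enho, Adh6-ps1 and Pag1 for C8b. C8a ranked 16 and C9 ranked 28 by likeness to C6, Hc ranked 96, and C8g ranked 3629.

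**Figure D4:**
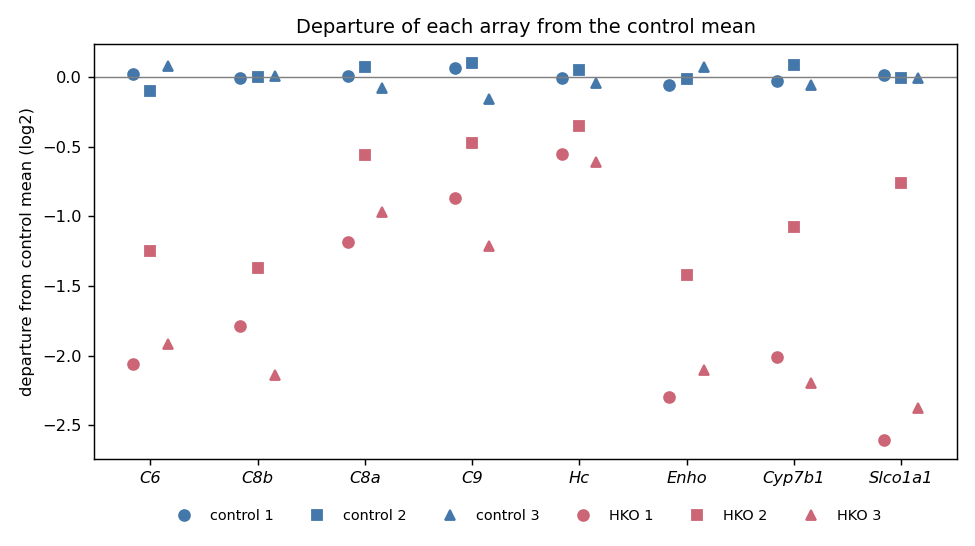
Departure of each array from the control mean of the same gene (log2, y axis) for 5 terminal complement genes and for Enho, Cyp7b1 and Slco1a1, with control arrays in blue, HKO arrays in red and marker shape giving the array number. HKO 2, the red square, lies nearest to 0 of the HKO arrays in all 8 genes. Enho and Cyp7b1 were picked on these same arrays as nearest profiles of C6 and C8b, so their likeness was partly given by the choice. Pag1, another nearest profile of C8b, is not plotted, and there HKO 1 was the nearest (4.41, 4.16 and 4.14 in HKO 1 to 3). Moxd1 and Cyp2u1, of the same male-biased list as Slco1a1, are not plotted either. There the nearest were HKO 3 and HKO 1.

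The gene pair C8a and C8b lies side by side on mouse chromosome 4, and C6 and C9 lie on chromosome 15 (gene order from RefSeq, GRCm38.p6). Among 20 other measured genes within 4 protein-coding genes on either side of the 4 members that fell, none passed the test (limma), with log2 differences from -0.52 to 0.12 and a lowest adjusted p of 0.153. These neighbours were looked up after the values were seen, and with 1.01% of all genes called in either direction a count of 0 in 20 is near the background. Dab1, the gene next to C8b on the other side, stood at -0.34 (adjusted p = 0.353) at a level below the median gene. Other neighbours were as dim, for example Plcxd3 (mean level 1.41), Mroh2b (2.53) and Traf1 (2.99), so that a fall in them could be missed.

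Markers of other liver cells were measured beside these values. None of 8 macrophage, 7 endothelial, 8 stellate cell or 5 cholangiocyte markers passed (limma). Their mean levels were 7.11 to 7.83 in controls and 7.35 to 7.97 in HKO for macrophages, and 6.32 to 6.48 and 6.24 to 6.59 for endothelial cells. They were 6.57 to 6.81 and 6.55 to 7.11 for stellate cells, and 3.17 to 3.26 and 2.89 to 2.99 for cholangiocytes. The lowest p in each list belonged to Cd5l (0.25, adjusted p = 0.559), Clec4g (-0.19, 0.479), Des (0.16, 0.486) and Sox9 (-0.66, 0.171). The cholangiocyte groups did not overlap, and all 5 of these markers are below the median gene.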

How the data were processed

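Per the labels' protocols, RNA of each liver was prepared with Trizol, and 400 ng of it went into biotinylated cRNA for 1 Affymetrix array, 3 arrays per genotype. The authors deposited log2 values of 38208 probe sets, made with RMA according to the submitters' processing notes, where limma is named too. Versions and settings were not given in the sources used here. RMA gives arrays a common distribution and shrinks changes of dim probe sets, and a shift of all transcripts would not be seen.

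The platform annotation gave 34325 probe sets 1 gene symbol and 62 several, left 3808 unnamed here, and 13 controls were left out. The brightest probe set over the 6 arrays stood for each of the 18029 genes. The test was limma 3.58.1 (R 4.3.3, two-sided, lmFit with eBayes, no covariates, differences as HKO less control), adjusted by Benjamini-Hochberg across those genes. The 3 arrays per genotype limit the precision. The p-values set each difference against the spread between these livers, which eBayes moderates over all genes. The fit was tested on simulated data with 18029 genes, 200 of them changed. It recovered 46.27% of changes of 0.5 log2 units, 92.54% of changes of 1 and 100% of changes of 2, and 3 of 162 calls were false. A gene that did not pass may therefore still differ by about 0.5 log2 units. No 2 arrays were identical.

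The members and lists were chosen with earlier results of these data known. The rule was to name all members, up to 4 genes with the lowest p per list and the 5 nearest profiles of C6 and C8b. Cyp2u1, Cyp2b13, Orm2, Lcn2 and Apcs were named outside this rule. Nudt7 of the male-biased list and the hepatocyte markers are not named in the results. Neighbouring genes were chosen after values were seen. A planned ratio of C6 to C7 was not run, since C7 is not analysed here. Alternatives were other scalings, filters, probe set choices, variance models, array weights, a replicate block, another threshold and leaving out each array.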

Additional observations from a re-analysis of the deposited data

How the results depend on the processing

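C6 and C8b were called lower under all 16 alternatives and no member was called higher under any. Leaving out 1 array gave 2 to 5 fallen members in place of 4, and 2 to 5 member probe sets in place of 3 (5 with an adjusted p under 0.1). Quantile normalization or centring moved the median gene by at most 0.0025 log2 units and changed no member's direction. C8g, which did not pass, lay between -0.085 and 0.0047 without 1 array, changing sign without HKO 3. Over all genes, 81 were called lower, against 122 among genes above the median, 128 with every probe set on its own, 126 with trend and robust options, 53 with the replicate number as a block, 179 with an adjusted p under 0.1, and 32 to 67 without 1 array. The 101 called higher became 165 with an adjusted p under 0.1 and 46 to 94 without 1 array.

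The number of a sample is not stated to pair livers across genotypes. Deviations of same-numbered livers correlated at -0.09, 0.07 and 0.11, and control 1 matched HKO 2 best. With the replicate number as a block, 4 members were called lower, with C9 (adjusted p = 0.0391) in place of Hc (0.0662). The block gave the within-array differences the same values, with a p of 0.25, the smallest that 3 pairs can give.

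In the lists, the 1 fallen upstream gene became 2 with the median of a gene's probe sets or the probe set chosen on the control arrays, 0 with the replicate block, and 0 to 1 without 1 array. The count of fallen male-biased genes (2) was 4 with an adjusted p under 0.1 and 1 to 5 without 1 array, and that of risen female-biased genes (5) was 2 among genes above the median. Of the acute phase genes 1 fell with trend and robust options or an adjusted p under 0.1. Of the other regulators 1 rose among genes above the median or with an adjusted p under 0.1, and of the cholangiocyte markers 0 to 1 fell without 1 array. The causes of these changes were not tested. At 3 arrays a genotype the standard error of a difference was 0.093 log2 units in the median gene, which limits what a single member can show.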
